A study of Mus musculus with 18 samples.

Results

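The 4 Hox clusters of the mouse genome, HoxA, HoxB, HoxC and HoxD, were followed as contact partners of 6 gene promoters in 3 cell types. The clusters were set by coordinates on build mm9 (NCBIM37), as intervals of 170 kb for HoxA, 200 kb for HoxB and 140 kb for HoxC and HoxD, and every DpnII restriction fragment whose middle lay inside was a member. The members spanned chr6:52100138-52269847 (HoxA), chr11:96039975-96239959 (HoxB), chr15:102739881-102880173 (HoxC) and chr2:74479902-74619996 (HoxD). These intervals hold 1515 DpnII fragments, of which 413 had at least 1 read in any of the promoter captures, out of 728281 fragments with a read genome-wide. HoxB supplied 221 of the 413, HoxD 75, HoxC 62 and HoxA 55.

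The assay was Next-Generation Capture-C, in which chromatin is crosslinked, cut with DpnII and religated, and ligation products that hold a chosen promoter (the viewpoint) are pulled down with oligonucleotides and sequenced, so that reads on a distant fragment count its contacts with that promoter. Viewpoints lay at Eomes, Foxa2 and Lhx1, transcription factor genes of early endoderm (the developmental viewpoints), and at Hba and Hbb, the alpha- and beta-globin genes, and Slc25a37, a mitochondrial iron importer of red cells (the erythroid viewpoints). The 3 groups had 3 libraries each. Undifferentiated embryonic stem cells (ESC, strain 129/Sv//EV, day 0) were grown in medium with LIF. Definitive endoderm cells (DE, the same strain, day 5) came from embryoid bodies treated with activin A and EGF. Erythrocytes, also labelled day 5, came from the spleens of C57BL/6 mice treated with phenylhydrazine. In comparisons with erythrocytes the strain therefore differed as well, and its effect cannot be told apart from that of the cell type. The labels do not say whether the 3 libraries of a group came from separate cultures or animals, and p-values then measure only the spread between these libraries. Contacts are averages over many cells, in which fewer cells with a contact and a rarer contact in each cell cannot be told apart.

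Hox genes encode homeodomain transcription factors that set position along the body axis, and in mammals they lie in 4 clusters in which gene order follows the order of expression. The clusters are rich in CpG islands. In undifferentiated embryonic stem cells they are silent and covered by the Polycomb mark H3K27me3, and they are textbook examples of Polycomb-bound regions that meet each other over long distances. HoxD lies on the chromosome of Foxa2, 73.3 Mb away, and HoxB on the chromosome of Lhx1, at 11.8 Mb, and of Hba, at 64.0 Mb. All other pairs of cluster and viewpoint were in trans, on different chromosomes. The clusters had GC contents of 48.9% (HoxA), 48.5% (HoxB), 48.4% (HoxC) and 47.8% (HoxD), against 41.4% to 43.8% for their chromosomes, and held 19.6 to 25.1 CpG dinucleotides per kb against 7.97 to 9.80.

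Contacts with the clusters were spread thinly over many fragments, and the fragment of each with the most reads from developmental viewpoints in ESC and DE is shown here to make the scale of the data visible. Its plus-strand mm9 sequence is printed with the bases that belong to the DpnII site at a fragment end in capitals. The HoxA fragment (chr6:52116538-52116837, the first 300 of its 307 bases) lies in introns of Hoxa3 and of the overlapping 5730446D14Rik and had 5 reads, 4 from Lhx1 in DE replicate 3 and 1 from Foxa2 in ESC replicate 3. The HoxB fragment (chr11:96063413-96063513, all 101 bases) lies outside annotated genes, 4652 bases from Hoxb13, and had 8 reads, all from Lhx1, with 3 in DE replicate 1, 4 in DE replicate 2 and 1 in ESC replicate 2. The HoxC fragment (chr15:102762240-102762539, the first 300 of 368 bases) lies between genes, 2995 bases from Hoxc13, holds 18 CpG dinucleotides, and had 4 reads, all from Eomes in DE replicate 3. The HoxD fragment (chr2:74522011-74522192, the 182 coding bases of 385) lies in the coding sequence of Hoxd11 and had 4 reads from Foxa2, 2 in ESC replicate 2 and 2 in DE replicate 3; 1 other HoxD fragment had as many.
HoxA fragment: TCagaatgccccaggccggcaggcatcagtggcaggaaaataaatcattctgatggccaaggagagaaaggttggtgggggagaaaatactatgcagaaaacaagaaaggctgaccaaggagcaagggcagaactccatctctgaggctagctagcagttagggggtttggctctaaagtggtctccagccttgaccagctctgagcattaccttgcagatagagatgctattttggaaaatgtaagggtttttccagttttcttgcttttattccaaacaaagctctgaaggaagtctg
HoxB fragment: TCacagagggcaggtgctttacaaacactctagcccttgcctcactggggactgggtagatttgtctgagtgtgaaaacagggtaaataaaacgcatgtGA
HoxC fragment: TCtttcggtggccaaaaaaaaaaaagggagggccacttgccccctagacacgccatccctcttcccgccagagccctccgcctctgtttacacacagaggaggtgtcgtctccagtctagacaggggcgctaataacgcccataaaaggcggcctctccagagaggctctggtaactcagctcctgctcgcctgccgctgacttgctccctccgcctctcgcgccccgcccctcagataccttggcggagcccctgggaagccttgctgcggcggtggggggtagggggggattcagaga
HoxD fragment: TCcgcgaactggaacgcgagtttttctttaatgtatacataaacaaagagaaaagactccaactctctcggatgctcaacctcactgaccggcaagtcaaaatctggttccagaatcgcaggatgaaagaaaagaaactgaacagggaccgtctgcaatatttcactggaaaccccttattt
Most members had a single read over all viewpoints and libraries, namely 40 of 55 fragments in HoxA, 109 of 221 in HoxB, 45 of 62 in HoxC and 51 of 75 in HoxD. Of the 163 HoxB fragments that Lhx1 contacted in ESC or DE, 119 were seen in 1 library, 36 in 2 and 8 in 3 of the 6. The results below therefore rest on whole clusters or on stretches of many kb, not on single fragments.

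Each library and viewpoint gave between 3744 and 192158 reads, with a median of 13522.5 in ESC, 36296 in DE and 10045.5 in erythrocytes. Erythrocyte replicate 2 stood apart, with a median over viewpoints of 72.5% of its reads in cis against 33.8% and 32.2% in the other erythrocyte libraries. A cluster's level is given as a ratio, its reads per kb over the mean reads per kb of the same chromosome in the same library, so that 1 is the chromosome's own level. In cis, the 5 Mb to each side of the viewpoint were left out of that mean. Reads can hold PCR copies, and the Poisson intervals given here cover no more than counting error.

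The Lhx1 promoter contacted HoxB far above the level of its chromosome in ESC, less in DE, and near that level in erythrocytes. Lhx1, a LIM homeodomain factor of the node and head organizer, had 50, 66 and 31 reads on HoxB in the 3 ESC libraries, 36, 68 and 32 in DE, and 4, 8 and 2 in erythrocytes. The ratios to the chromosome were 17.2, 13.6 and 12.5 in ESC, 4.79, 7.14 and 5.12 in DE, and 0.620, 4.09 and 1.34 in erythrocytes. All ESC libraries lay above all DE libraries, and all DE libraries above all erythrocyte libraries. The mean ratio was 14.4 ± 2.45 in ESC, 5.68 ± 1.28 in DE and 2.02 ± 1.83 in erythrocytes (SD, n = 3 each), 2.54-fold lower in DE than in ESC and 7.16-fold lower in erythrocytes. Erythrocyte replicate 2, the library that stood apart, supplied the highest erythrocyte value, and the mean of the other erythrocyte libraries was 0.978.

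The size of the ESC ratio depended on the part of chromosome 11 taken as reference, and the order of the cell types did not. With the 1 Mb to each side of HoxB as reference the mean ratio was 5.88 in ESC, 2.33 in DE and 1.07 in erythrocytes, and against regions at 0.8 to 1.2 times the distance it was 7.72, 3.29 and 0.954. Counting each fragment once per library, chosen after the data were seen, gave 13.8 in ESC and 5.12 in DE. Among 543 segments of chromosome 11 (200 kb windows and the cluster) more than 5 Mb from Lhx1, HoxB ranked 1st by reads per kb in ESC, at 0.735 reads per kb against 0.490 in the next and a median of 0.035. It also ranked 1st in DE, at 0.680 against 0.495 and a median of 0.09, and 81st in erythrocytes.

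**Figure D1:**
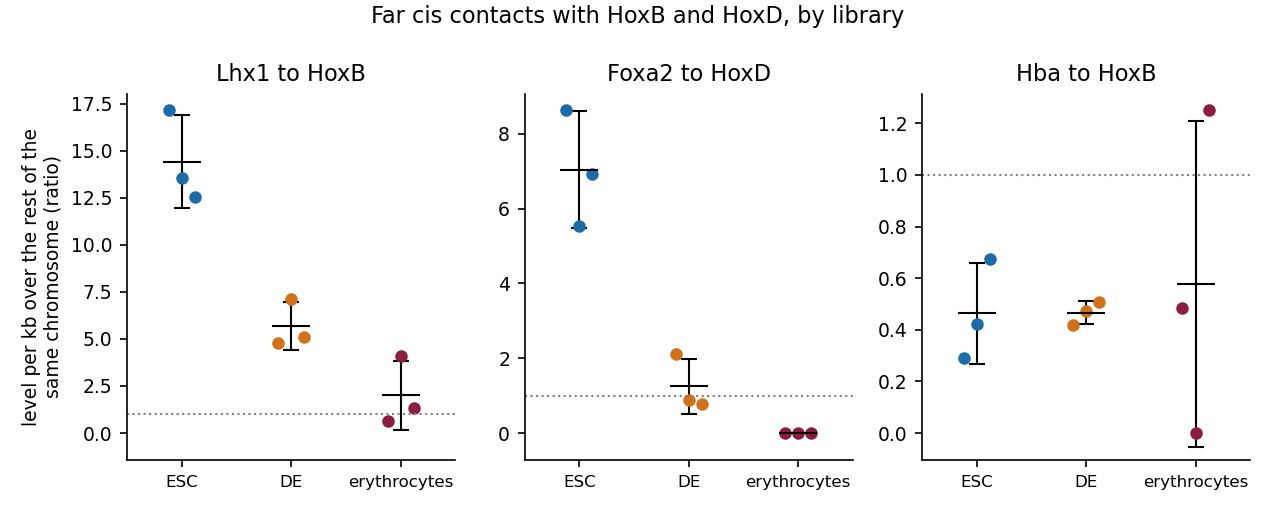
Level of HoxB with the Lhx1 viewpoint, HoxD with Foxa2 and HoxB with Hba, as the ratio of reads per kb to the rest of the chromosome beyond 5 Mb of the viewpoint (y axes, linear, a separate scale in each panel). Points are libraries, the wide lines are means and the whiskers SDs over 3 libraries, and the dotted line is the chromosome's level. With Lhx1 the ESC libraries lie between 12.5 and 17.2, above DE and erythrocytes, and with Foxa2 between 5.53 and 8.65.

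Both falls passed the threshold in a test over all far segments of the chromosome (limma on log2 of signal per 100000 far cis interactions plus 20, Benjamini-Hochberg adjusted p under 0.05). In DE against ESC, 11 of 470 segments were called, a background of 2.34%, and HoxB was 1 of them, with a mean signal of 866 ± 189 in DE against 2146 ± 372 in ESC (SD, n = 3), a log2 difference of -1.30 (SE 0.21, limma adjusted p = 0.000348). This was the 16th lowest difference of 470. In erythrocytes against ESC, 3 of 376 segments were called, or 0.798%, and HoxB was again 1 of them, with a signal of 307 ± 271, a log2 difference of -3.06 (SE 0.48, limma adjusted p = 0.00208) and the second lowest of all differences. The calls depended on single libraries. Without DE replicate 1 the first difference was -1.19 with an adjusted p of 0.124 in limma, and the second was -2.49 (adjusted p = 0.0625) without erythrocyte replicate 1 and -2.92 (adjusted p = 0.151) without ESC replicate 1.

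Inside HoxB the contacts in ESC were densest over the Hoxb9 to Hoxb1 stretch, the run of genes that spans the trunk and hindbrain paralogues. This 96.8 kb stretch held 106 of the 147 ESC reads (41, 43 and 22 by library), or 1.10 reads per kb, while the 74.0 kb between Hoxb13 and Hoxb9, which holds no Hox gene, had 22 reads (2, 16 and 4), or 0.297 per kb. The stretches were drawn after the profile was seen. All 10 Hoxb genes, each taken with 1 kb to either side, had reads in ESC. Hoxb3, a large gene active in the hindbrain, had 10, 12 and 9 reads (1.22 per kb), Hoxb6 11, 4 and 3 (1.62 per kb), Hoxb8 3, 6 and 1 (1.84 per kb), and Hoxb1, which marks the rhombomere that gives rise to the facial nerve, 1, 2 and 0 (0.666 per kb). Neighbouring genes share some of these reads, and counts this small do not order the genes.

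In DE the same stretches drew 82 reads (21, 42 and 19) and 45 reads (13, 19 and 13), at 0.847 and 0.608 per kb. These values are not scaled for depth, so they cannot be set directly against the ESC values. The Lhx1 viewpoint had 19273, 24540 and 15845 cis reads in DE against 8561, 14412 and 7196 in ESC. Hoxb13, the most posterior gene of the cluster, had 8 DE reads (2, 3 and 3), Hoxb3 had 25 (7, 15 and 3) and Hoxb6 20 (6, 6 and 8). Hoxb5 had 1 DE read against 5 in ESC, and Hoxb7 3 against 12. Counts were higher in DE for Hoxb4 (9 against 6), Hoxb6 (20 against 18) and Hoxb13 (8 against 3), and they do not order the genes. In erythrocytes 8 of the 10 genes had no read, which at 14 reads over the cluster the depth could not resolve.

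**Figure D2:**
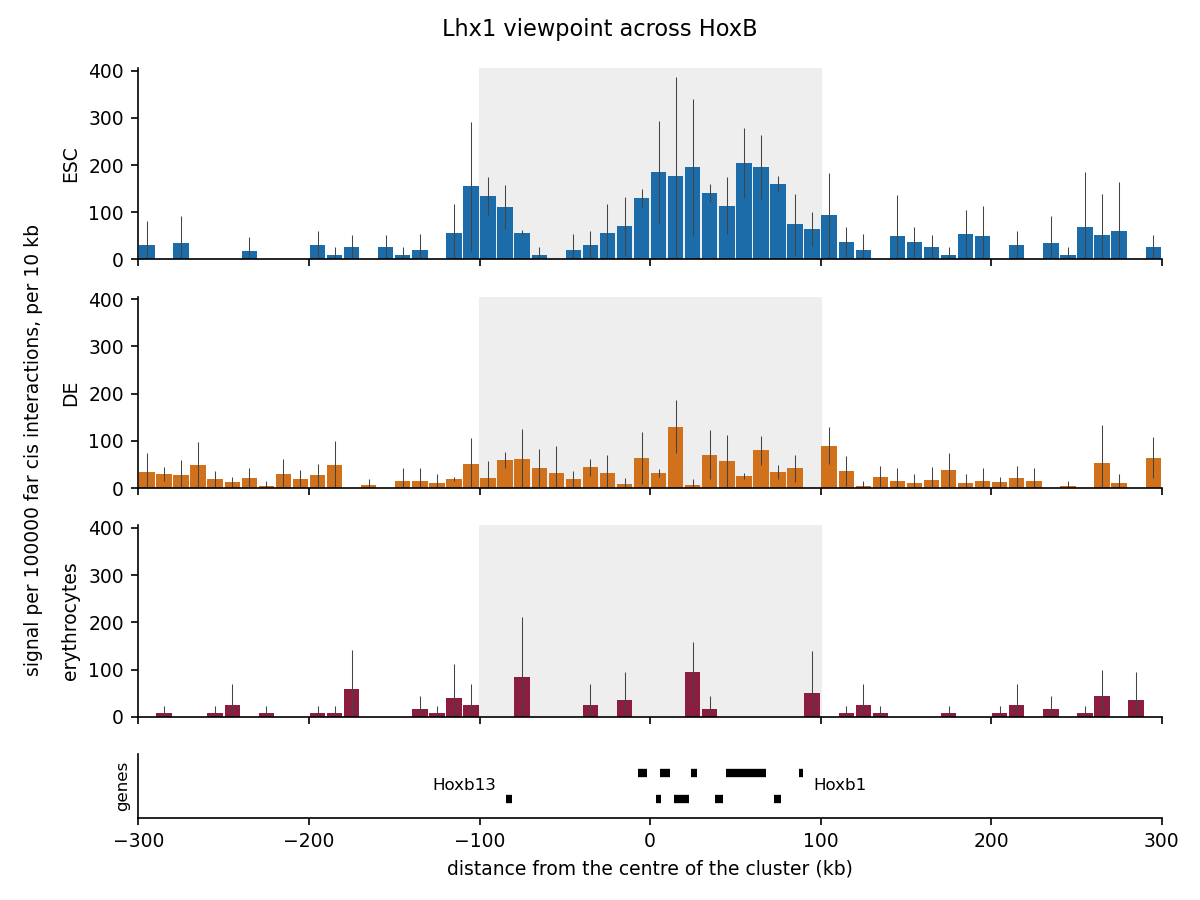
Reads from the Lhx1 viewpoint along HoxB in 10 kb bins, scaled per 100000 far cis interactions (y axis), against distance from the cluster's centre in kb (x axis). Coloured bars are means and thin lines SDs over 3 libraries, cut at 0, the grey band is the cluster and black bars are gene bodies. ESC values are highest over Hoxb9 to Hoxb1, where 106 of 147 ESC reads lay.

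The Foxa2 promoter contacted HoxD above the chromosome's level in ESC, near that level in DE and without a read in erythrocytes, over a distance of 73.3 Mb. Foxa2, a forkhead pioneer factor of endoderm and floor plate, had 13, 13 and 9 reads on HoxD in ESC, 11, 6 and 3 in DE, and none in any erythrocyte library. The ratios were 8.65, 5.53 and 6.94 in ESC and 2.10, 0.870 and 0.780 in DE. All ESC libraries lay above all DE libraries, and 1 of 3 DE libraries lay above the chromosome's level. The mean ratio was 7.04 ± 1.56 in ESC and 1.25 ± 0.738 in DE (SD, n = 3), a 5.63-fold difference. In erythrocytes 6.17 reads would have been seen over the 3 libraries at the chromosome's level. With a floor of 3 reads over the group put in place of 0 (a ratio of 0.486), the pooled ESC ratio of 6.79 was 14.0-fold higher. That fold is not a lower limit, since the exact Poisson 95% intervals were 4.73 to 9.45 in ESC and 0 to 0.598 in erythrocytes. The ESC ratio was 10.5 against the 1 Mb on each side, 12.8 against regions at a like distance, and 9.26 with 20 kb trimmed from each end of the cluster.

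HoxD ranked 4th of 843 segments of chromosome 2 by reads per kb with Foxa2 in ESC, at 0.250 reads per kb against a median of 0.02. It ranked 273rd in DE, and in erythrocytes it shared the bottom rank from 761 on with other segments without reads. In the limma test of DE against ESC, 13 of 666 far segments were called, or 1.95%, HoxD among them, and its log2 difference of -2.31 (SE 0.43, limma adjusted p = 0.000881) was the lowest of the 666. The signal per 100000 far cis interactions was 577, 367 and 459 in ESC and 140, 58.5 and 52.2 in DE. For erythrocytes against ESC 37 of 417 segments were called, or 8.87%, and 471 segments were not tested. HoxD was among those called, with the lowest difference of the 417 (-4.59, SE 0.85, limma adjusted p = 0.00228). This fitted value depends on the added constant, since the erythrocyte reads were 0. All 35 HoxD reads in this comparison came from ESC, so HoxD met the minimum of reads for testing through ESC alone. The size and rank of its difference therefore do not measure how far the contact fell. The call of HoxD was lost with any 1 ESC library left out, at adjusted p = 0.0621 without replicate 1, 0.0725 without replicate 2 and 0.0973 without replicate 3 in limma.

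Within HoxD the ESC reads were denser in the posterior part, drawn after the profile was seen. The 31.9 kb of paralogue groups 9 to 13, from Hoxd13 to Hoxd9, genes that pattern digits, forearm and the posterior trunk, had 19 of the 35 reads (8, 6 and 5), or 0.596 per kb, and the 60.5 kb of groups 1 to 8 had 10 (5, 2 and 3), or 0.165 per kb. Hoxd11, which with Hoxa11 shapes the forearm, had 4, 5 and 1 reads (0.966 per kb), Hoxd10 4, 0 and 1 (0.831 per kb) and Hoxd13, the digit gene at the end of the cluster, 0, 0 and 3 (0.567 per kb). Hoxd1 had none. In DE the posterior part had 8 reads (5, 1 and 2) and the anterior part 4 (3, 1 and 0), and of the 46 HoxD fragments read in ESC or DE 45 were seen in 1 library alone. The share of reads in the posterior part was 54.4% ± 7.75 in ESC and 42.9% ± 25.1 in DE (SD, n = 3), and the libraries of the groups overlapped.

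**Figure D3:**
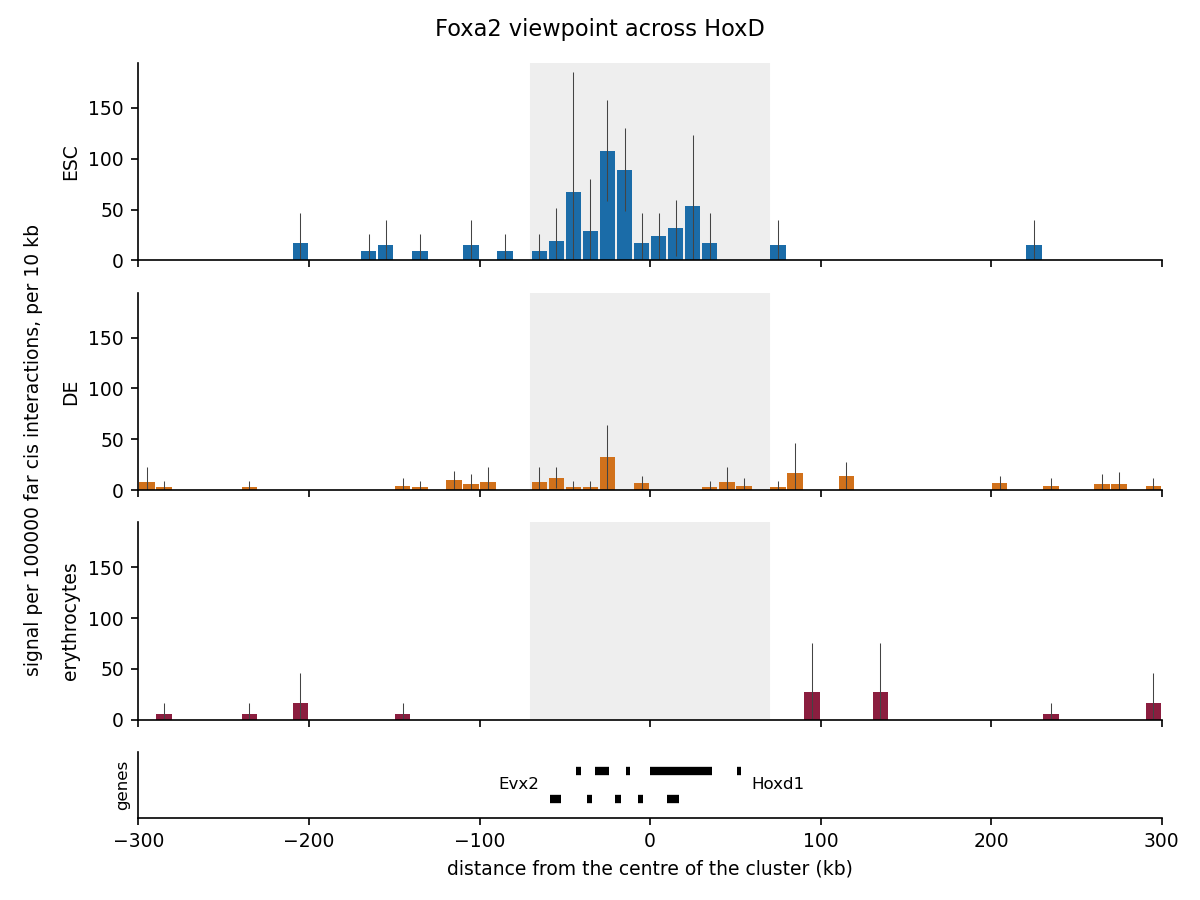
Reads from the Foxa2 viewpoint along HoxD in 10 kb bins, scaled per 100000 far cis interactions (y axis), against distance from the cluster's centre in kb (x axis). Coloured bars are means and thin lines SDs over 3 libraries, cut at 0, the grey band is the cluster and black bars are gene bodies. ESC reads gather over Hoxd13 to Hoxd9, and no erythrocyte library had a read in the cluster.

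The Hba promoter, an erythroid viewpoint on the same chromosome as HoxB, did not show such a level. It had 4, 9 and 9 reads on HoxB in ESC, 19, 27 and 15 in DE and 8, 0 and 6 in erythrocytes, and mean ratios of 0.463 ± 0.195, 0.466 ± 0.0447 and 0.578 ± 0.631 (SD, n = 3). The groups overlapped. HoxB ranked 370th, 411th and 320th of 543 segments. Against regions at a like distance the ratios were 1.16 in ESC, 0.938 in DE and 0.814 in erythrocytes. In erythrocytes against ESC 48 of 570 segments were called, or 8.42%, and HoxB was not among them (log2 difference -0.19, SE 0.78, limma adjusted p = 0.916); this sign turned under several settings. The HoxB ratio was higher with Lhx1 than with Hba in 3 of 3 libraries of each cell type, by 14.0, 5.22 and 1.44 in the mean in ESC, DE and erythrocytes (exact permutation test paired by library, two-sided, p = 0.25 each, the smallest 3 pairs allow, adjusted p = 0.444). The viewpoints lie at different distances from HoxB.

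In trans, the developmental viewpoints together read the 4 clusters at about 3 times the level of the chromosomes in ESC and DE and at about that level in erythrocytes, and the erythroid viewpoints read them at about the chromosomes' level in all 3. Summed over the developmental pairs in trans, the ESC libraries had 5, 18 and 13 reads where 11.95 would lie at the chromosomes' level over the 3, a ratio of 3.01 (exact Poisson 95% interval 2.11 to 4.17). DE had 24, 36 and 39 reads, a ratio of 2.84 (2.31 to 3.46), and erythrocytes 6, 1 and 5 reads, a ratio of 0.808 (0.418 to 1.41). Lhx1, which has no pair with HoxB in trans, supplied 51 of the 99 DE reads but 9.18 of the 34.9 expected, so the DE sum is not a level shared evenly by the class. The erythroid viewpoints gave 18 reads in ESC (ratio 0.983, interval 0.582 to 1.55), 58 in DE (1.18, interval 0.894 to 1.52) and 28 in erythrocytes (0.878, interval 0.584 to 1.27). By library the developmental ratio was 1.53, 3.60 and 3.53 in ESC and 2.19, 2.45 and 4.22 in DE, and the erythroid ratio 1.21, 0.647 and 1.24 and 1.41, 0.864 and 1.40. Every developmental value lay above every erythroid value within ESC and within DE, and these sums carry no test.

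By viewpoint, Lhx1 in DE read the clusters in trans at the highest ratio, 5.55 (16, 10 and 25 reads, interval 4.13 to 7.30). This exceeded its ESC ratio of 3.33 (2, 3 and 6 reads), but the ESC interval of 1.66 to 5.95 overlaps. Eomes, the T-box factor at the head of the endoderm programme, had 2.97 in ESC, where 12 of 16 reads came from replicate 2, and 2.08 in DE (5, 18 and 10 reads). Foxa2 had 2.76 in ESC (1, 3 and 5 reads) and 1.53 in DE (3, 8 and 4), and the DE interval of 0.856 to 2.52 holds 1. Among the erythroid viewpoints Slc25a37 in DE was highest, at 1.69 (11, 5 and 7 reads, interval 1.07 to 2.54), and Hba and Hbb lay between 0.662 and 1.27 in the 3 cell types.

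**Figure D4:**
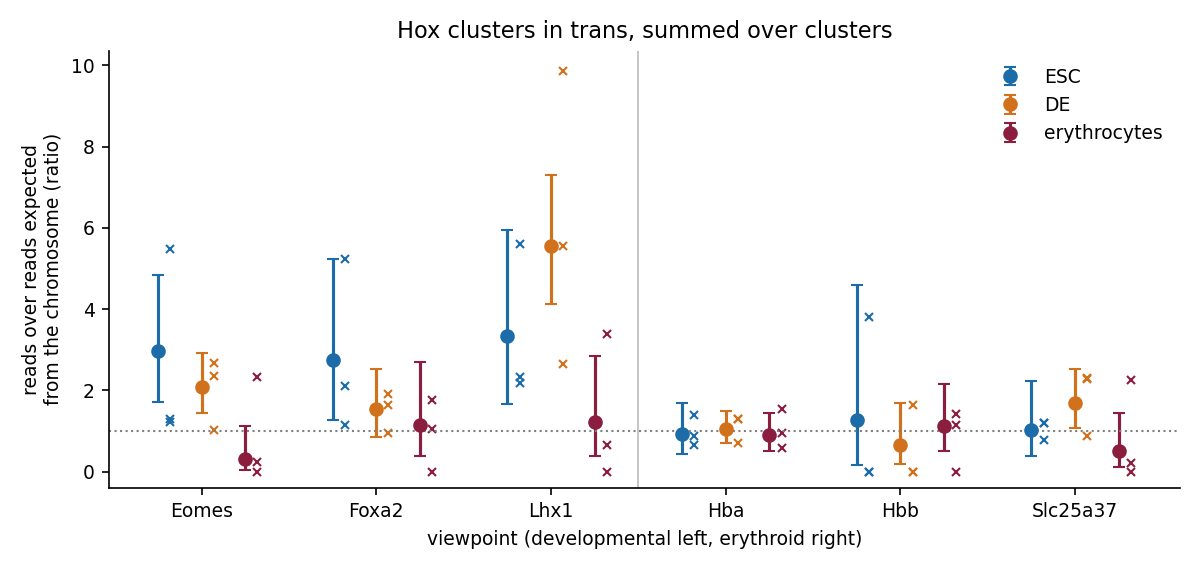
Ratio of reads on all Hox clusters in trans to the level of their chromosomes (y axis) for each viewpoint and cell type, with exact Poisson 95% intervals for the reads pooled over 3 libraries and crosses for the single libraries. The dotted line is the chromosomes' level. Lhx1 in DE is highest at 5.55, and the developmental viewpoints in ESC lie between 2.76 and 3.33.

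By cluster, the mean developmental ratio was higher than the erythroid one in 3 of 4 clusters in ESC, 4 of 4 in DE and 2 of 4 in erythrocytes. All developmental libraries lay above all erythroid ones for HoxA and HoxD in ESC, for HoxB and HoxC in DE and for no cluster in erythrocytes. The same held for 6.81% of all segments with at least 10 reads in ESC (431 of 6329), 5.59% in DE (650 of 11634) and 2.56% in erythrocytes (266 of 10378). HoxD in ESC had 9 reads, below that minimum. HoxA, whose posterior genes pattern the limb and reproductive tract, had ratios of 3.07, 3.22 and 6.19 in ESC with developmental viewpoints (14 reads) and 0, 0.950 and 0.540 with erythroid ones (5 reads). In DE the developmental values were 2.98, 1.32 and 3.87, and 1 of them lay inside the erythroid range of 0.835 to 1.39, and without the Lhx1 viewpoint their mean of 2.72 became 1.38. HoxA in erythrocytes had 2 developmental reads, a ratio of 0.437 in the mean.

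HoxC had the most developmental reads, 41 in DE (8, 9 and 24), at ratios of 3.11, 2.72 and 10.1, and the mean of 5.30 ± 4.13 was 2.91 without DE replicate 3 and 3.37 without the Lhx1 viewpoint. The erythroid ratios in DE were 2.67, 1.07 and 2.56, and 11 of those 22 reads came from Slc25a37 (pooled ratio 4.13), while Hba had 1.00 and Hbb 0.802. Summed erythroid reads gave a ratio of 1.58, with an interval of 0.992 to 2.40 that holds 1. Hba supplied 9.99 of the 13.9 reads expected in that sum. The library ratios weight the viewpoints alike instead, and their mean was 2.10. The HoxC genes with most developmental reads in DE were Hoxc6 with 7, and Hoxc11 and Hoxc13, the latter required in hair and nails, with 6 each. In ESC HoxC had 1, 8 and 3 developmental reads, a mean ratio of 3.64 ± 2.35 against 1.27 for the erythroid class, with overlap, and 2.39 without ESC replicate 2.

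HoxD had ratios of 1.60, 2.11 and 4.03 in ESC with Eomes and Lhx1 (6 reads) and 0.710, 0.228 and 0 with erythroid viewpoints (3 reads). In DE the values were 1.60, 3.54 and 1.21, and they overlapped the erythroid range of 0.444 to 2.46. The DE level rested on Lhx1, since without it the mean of 2.11 became 0.719, while without Eomes it became 3.53. HoxB, in trans to Eomes and Foxa2 only, had no more than 3 developmental reads in an ESC library and a mean ratio of 1.16 against 2.47 for the erythroid class. In DE it had 3, 12 and 2 developmental reads, at ratios of 0.932, 2.71 and 0.821, all above the erythroid values of 0.311, 0 and 0.503, and the mean of 1.49 was 0.877 without DE replicate 2.

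**Figure D5:**
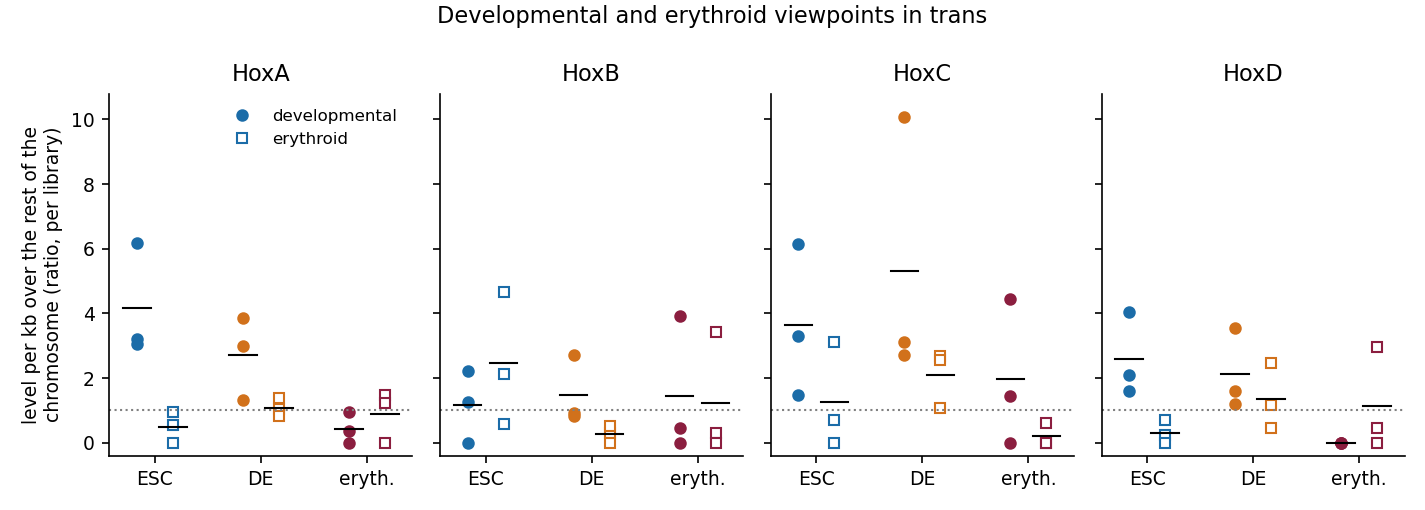
Ratio of each cluster's level per kb to its chromosome (y axis) in every library (points), averaged over developmental (filled circles) or erythroid (open squares) viewpoints in trans, with the mean as a line. HoxA in ESC separates the classes, at 3.07 to 6.19 against 0 to 0.950, and HoxC in DE has 1 library at 10.1.

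No cluster passed the threshold in any test in trans. In ESC developmental and erythroid viewpoints were compared over 200 kb windows and the clusters (limma on log2 of signal per 100000 trans interactions plus 5, with the library as a block), and 3 of 6329 segments were called, or 0.0474%. The log2 difference was 2.04 for HoxA (SE 0.75, limma adjusted p = 0.863), 1.25 for HoxC and -0.81 for HoxB, and HoxD had 9 reads and was not tested under the minimum of 10. HoxA was the 24th highest of 6329 differences. In DE 5 of 11634 segments were called, or 0.043%, and the differences were 0.91 for HoxA, 1.35 for HoxB (SE 0.50, limma adjusted p = 0.608), 0.89 for HoxC and 0.51 for HoxD, positive in 4 of 4. In erythrocytes 1 of 10378 segments was called, or 0.00964%, and the differences were -0.43 for HoxA, 1.17 for HoxC and -0.97 for HoxD, with HoxB not tested at 6 reads. With 3 libraries an exact permutation test over libraries could not go below p = 0.1, or 0.25 for paired values. Over the 32 such tests run on ratios the smallest adjusted p was 0.4.

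The change of the developmental preference between cell types was tested directly. For ESC against erythrocytes 0 of 11699 segments were called, a background of 0%, by limma, edgeR and DESeq2, with 635 under an unadjusted limma p of 0.05. Of the 4 clusters HoxD (2.59, SE 0.93) and HoxA (2.47, SE 1.10) had the higher differences on the log2 scale, both at limma adjusted p = 0.906, HoxB had -0.94 and HoxC 0.079, whose sign turned under other settings. For DE against ESC 0 of 11851 were called, again 0%, by the 3 tools, with 604 under the unadjusted limma p of 0.05, and the differences were -1.14 for HoxA, 2.16 for HoxB (SE 0.88, limma adjusted p = 0.946), -0.36 for HoxC and -1.11 for HoxD.

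Developmental viewpoints alone gave 0 of 9171 called segments in DE against ESC (0%, with 597 under an unadjusted limma p of 0.05 and 0 by edgeR and DESeq2) and 0 of 4787 in erythrocytes against ESC (0%, with 216, and 0 by edgeR and DESeq2). Of the clusters only HoxA and HoxC were tested in the second, since HoxB and HoxD had 6 reads each. HoxA had a log2 difference of -2.09 (SE 0.91, limma adjusted p = 0.964) and HoxC of -0.89. The HoxA signals per 100000 trans interactions were 21.8, 22.9 and 42.6 in ESC and 2.85, 0 and 6.88 in erythrocytes. Erythroid viewpoints in erythrocytes against ESC gave 1 of 10460 called, or 0.00956%, and no cluster, with HoxC not tested at 6 reads. Foxa2 and Lhx1 against Eomes in ESC gave 3 of 606 called, or 0.495%, with HoxA at 0.012 and HoxC at 1.33 and neither called. There HoxB, at 4 reads, and HoxD, at 6 reads, were not tested. These comparisons share their ESC libraries.

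A list of 14 other homeobox genes outside the clusters, relatives of Hox in the ANTP class such as Dlx, Meox and Gsx genes, was measured in the same way over the 12 windows that hold them. None of the windows tested was called higher or lower in any of the 9 comparisons in trans. The number tested ranged from 3 (Foxa2 and Lhx1 against Eomes in ESC) and 7 (developmental viewpoints, erythrocytes against ESC) to 12. Over all segments the share called was 0% to 0.495%, so no call among so few windows is near that share. For developmental against erythroid viewpoints the median log2 difference was 0.22 over 9 tested windows in ESC (all windows -0.00072), 0.18 over 12 in DE (all windows -0.012) and 0.32 over 9 in erythrocytes (all windows -0.15). In cis, Dlx3 starts at chr11:94981403, close to HoxB (chr11:96039975-96239959), and whether its contacts are separate from those of HoxB was not tested. The window of Dlx3, a gene of placenta, skin and bone, ranked 3rd of 543 with Lhx1 in ESC (25, 39 and 9 reads), behind HoxB. It ranked 17th in DE (11, 24 and 30 reads) and 3rd in erythrocytes (18, 12 and 6 reads), where HoxB ranked 81st. Its log2 difference was -1.19 in DE against ESC (SE 0.37, limma adjusted p = 0.111) and -0.55 in erythrocytes against ESC (SE 0.40, limma adjusted p = 0.623). Dlx1, a forebrain gene on the chromosome of Foxa2, starts at chr2:71366170, on the same chromosome as HoxD (chr2:74479902-74619996). Its window ranked 60th of 843 with Foxa2 in ESC, 357th in DE and 270th in erythrocytes. The log2 difference was -1.41 in DE against ESC (SE 0.53, limma adjusted p = 0.168). The window of Meox1, a somite gene and the third of the list in cis, went the other way with Lhx1, ranking 145th of 543 in ESC (2, 6 and 5 reads), 32nd in DE (28, 24 and 10) and 16th in erythrocytes (12, 3 and 12). Its log2 difference was 0.99 in DE against ESC (SE 0.49, limma adjusted p = 0.369) and 1.22 in erythrocytes against ESC (SE 0.65, limma adjusted p = 0.494). With Hba the windows of Dlx3 and Meox1 ranked between 288th and 488th of 543.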

How the data were processed

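Signal values per DpnII fragment were deposited by the authors for 6 promoter viewpoints in 9 libraries. The submitters' processing notes name Trim Galore, Bowtie and mm9, the methods name Capture-C scripts, and the deposited values are scaled to 100000 interactions per viewpoint and library. How PCR copies were treated is not given in the sources used here. Dividing each signal by the smallest step gave whole reads (within 0.05) in all columns. In the Hba column of DE replicate 3 the worth of 1 read came out at 0.998, nearly 1. That column was left out of tests on reads, but it entered the ratios and intervals. Fragment ends matched DpnII sites of NCBIM37 at 20000 of 20000 checked. Enhancer captures were not used here.

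Fragments were summed over the clusters and 200 kb autosomal windows. The main test was limma (3.58.1, R 4.3.3) with trend on log2(mean signal per 100000 trans interactions + 5), or + 20 per 100000 far cis interactions (beyond 2 Mb), for segments with at least 10 reads, with Benjamini-Hochberg adjustment at 0.05 over all segments. Comparisons of viewpoint classes within a cell type used the library as a block. edgeR 4.0.16 and DESeq2 1.42.0 on recovered reads, TMM scaling, other pseudocounts, minima, references and scalings, and leaving out each library were alternatives. Some tests of ESC and DE, and none with erythrocytes, were also run on simulated data with 200 changed segments, and no conclusion is drawn from those runs here. Ratios to the chromosome in cis, and ranks, left out 5 Mb around the viewpoint. Ratios, exact tests and intervals used Python 3.11.15 and scipy 1.17.1. The text names the 4 clusters, the Hox genes within them, the fragment of each cluster with the most developmental reads in ESC and DE, and windows of a list of other homeobox genes. The clusters and lists were chosen with earlier results of these data known. Same-numbered libraries did not deviate together (correlations from -0.0815 to 0.0788).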

Additional observations from a re-analysis of the deposited data

How the results depend on the processing

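The falls of Lhx1 to HoxB and Foxa2 to HoxD from ESC to DE and erythrocytes kept their direction under all alternatives run and their calls under all but those that left out a library, given above (log2 difference over left-out libraries -1.47 to -1.16 and -3.71 to -2.49 for HoxB, and -2.67 to -2.10 and -4.74 to -4.43 for HoxD). No paired structure was seen, and a fit with the replicate number as a block (replicate block) gave adjusted p = 8.55e-05 for HoxD and 1.19e-06 for HoxB in DE against ESC by limma and changed no call of a cluster. The ESC ratio moved with its reference, to 5.88 (1 Mb flanks) and 7.72 (like distance) for HoxB with Lhx1, and to 10.5, 12.8 and, trimmed by 20 kb, 9.26 for HoxD with Foxa2.

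The counts of called segments depended more on the setting, and the cause was not tested. For Foxa2 in DE against ESC the count was 8 with a pseudocount of 5, 7 with no minimum of reads, 52 scaled to all cis interactions, and 5 to 14 with a library left out. For Foxa2 in erythrocytes against ESC it was 5 and 74 with pseudocounts of 5 and 80, 65 by edgeR, 19 by DESeq2, 69 with TMM, 82 scaled to all cis, and 1 to 62 with a library left out. For Lhx1 in DE against ESC it was 4 with a pseudocount of 5, 6 with no minimum, 5 with 5 Mb around the viewpoint left out, 19 scaled to all cis, and 1 to 8 with a library left out, and in erythrocytes 6 with no minimum, 6 scaled to all cis, and 1 to 5. For Hba it was 19 to 72 with a library left out.

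In trans, the count for developmental against erythroid viewpoints was 1 to 3 in ESC with a library left out (1 without replicate 3). In DE it was 3 by edgeR, 2 by DESeq2, 3 with TMM, and 3 to 5 with a library left out. In erythrocytes it was 2 with a pseudocount of 20, 0 scaled to all interactions, and 1 to 16 with a library left out (16 without replicate 3). The change between cell types gave 0 to 1 (ESC against erythrocytes) and 0 to 2 (DE against ESC) with a library left out, and developmental viewpoints in erythrocytes against ESC 0 to 1. Erythroid viewpoints there gave 0 with a pseudocount of 20, by edgeR, by DESeq2 and with TMM, and 0 to 1 with a library left out. Foxa2 and Lhx1 against Eomes gave 1 with a pseudocount of 2, 1 with no minimum, 0 by DESeq2, 0 with TMM, and 0 to 5 with a library left out.

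Signs that turned all belonged to differences that were not called. HoxB with Hba in erythrocytes against ESC was 0.055 with a pseudocount of 80, 0.24 by edgeR, 0.30 by DESeq2, 0.16 with TMM, 0.28 scaled to all cis, and -0.97 to 0.80 with a library left out. In the developmental preference of ESC minus that of erythrocytes HoxC was -0.94 by edgeR, -1.05 by DESeq2, -1.01 with TMM, -0.093 scaled to all interactions, and -0.87 to 0.87 with a library left out, and HoxB -2.39 to 0.46. In that of DE minus that of ESC HoxC was -0.97 to 0.59. For Foxa2 and Lhx1 against Eomes HoxA was -0.33 by edgeR, -0.015 by DESeq2, -0.21 with TMM, and -0.048 without ESC replicate 1. In DE against ESC with developmental viewpoints HoxD was 0.033 with TMM and -0.60 to 0.038 with a library left out, HoxC -0.19 to 0.73 and HoxB -0.21 to 1.02. HoxA in erythrocytes was -1.27 to 0.11. Depth limits the results in trans, where a cluster had at most 24 developmental reads in a library.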

Other observations

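For the Lhx1 viewpoint the gap between Hoxb13 and Hoxb9 took 36.1, 27.9 and 40.6% of the cluster's reads in the DE libraries (34.9% ± 6.43, SD, n = 3) and 4.00, 24.2 and 12.9% in the ESC libraries (13.7% ± 10.2), with no overlap. Counting each fragment once per library the means were 31.4% ± 3.28 and 14.8% ± 11.4, again without overlap. The stretch from Hoxb9 to Hoxb1 took 72.7% ± 8.56 of the reads in ESC and 59.8% ± 1.76 in DE, without overlap. Of the fragments with a read it took 72.8% ± 11.6 in ESC and 62.5% ± 3.78 in DE, with overlap. The stretches were chosen after their values were seen. Exact permutation tests run on these shares therefore cannot serve as support and are not given. A share is relative to the cluster, whose mean ratio to the chromosome was 14.4 in ESC and 5.68 in DE. The gap had 22 reads in ESC and 45 in DE, where 10.2 and 23.3 reads would lie on the whole cluster at the chromosome's level. The shares therefore do not show a higher level of the gap itself in DE. The HoxB fragment printed above, with 7 of its 8 reads from DE, lies in this gap.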
